A study of Mus musculus with 12 samples.

Results

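Chemokines are small secreted proteins that steer leukocytes along a concentration gradient, and they act through G protein-coupled receptors on the cells they attract. The transcripts of this family were examined in bulk RNA-seq of mouse liver, across untreated and DSS-treated wild-type and RelaΔhepStat3Δhep mice. The members were all genes whose symbol begins with Ccl, Cxcl, Cx3cl, Xcl, Ccr, Cxcr, Cx3cr or Xcr followed by a digit and whose counts sum above 0. There were 49 members among 51609 rows of the count table, of which 28151 had any count. They comprised 31 ligands, including the pseudogene Ccl19-ps1, and 18 receptors. A further 5 genes that fit the naming rule had a row with no count in any library (Ccl1, Ccl20, Ccl26, Ccr8 and Cxcl15), and 7 gene models were not analysed here (Ccl19-ps3, Ccl21a, Ccl21b, Ccl21c, a second model of Ccl25, Ccl27b and Ccr9).

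The mice were of the C57BL/6 strain, 5 to 7 weeks old and of either sex. DSS (dextran sodium sulfate), which injures the colon epithelium and gives an experimental colitis, was dissolved at 2% in the drinking water for 6 days, while untreated mice drank plain water. The RelaΔhepStat3Δhep mice (written KO in the plots) carry floxed alleles of Rela, the p65 subunit of NF-kappa B, and of Stat3, the transcription factor downstream of interleukin-6, and delete them with a Cre recombinase that the albumin promoter drives in hepatocytes. Their wild-type controls were littermates with the floxed alleles and no Cre. By this design the other liver cells keep both genes in all 4 groups, which the counts used here do not measure. Each group had 3 mice and each mouse gave 1 library. The question put to the data was which chemokines and receptors changed in the liver during colitis, and whether the response differed without hepatocyte Rela and Stat3.

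Liver hepatocytes, resident Kupffer cells, sinusoidal endothelium and stellate cells can all make chemokines, and the receptors are carried mostly by leukocytes. Ligands with a glutamate-leucine-arginine (ELR) motif, such as Cxcl1, draw neutrophils through Cxcr2. The monocyte chemoattractants Ccl2, Ccl7 and Ccl12 act on Ccr2, and the interferon-inducible Cxcl9, Cxcl10 and Cxcl11 act on Cxcr3 of activated T cells and natural killer (NK) cells. Several of these ligand genes are textbook targets of NF-kappa B, interferon-activated factors or both. In bulk tissue, fewer cells of a type and less RNA per cell cannot be told apart.

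The totals of estimated counts were 65879529 to 82850098 per library, so that 1 count stood for 0.0120 to 0.0159 CPM (read counts normalised to the TMM-scaled library size). Rela overlapped between the untreated genotypes (42.8 to 51.4 CPM in RelaΔhepStat3Δhep against 41.2 to 54.5 in wild-type liver). The table gives whole-gene counts that do not show the deleted exons. Stat3 was 45.7, 138 and 87.6 CPM in untreated wild-type liver and 45.9, 46.7 and 49.7 in untreated RelaΔhepStat3Δhep liver. After DSS it was 63.2, 330 and 307 CPM in wild-type and 43.0, 58.1 and 74.8 in RelaΔhepStat3Δhep liver. The sex-linked transcripts were unevenly spread. All 3 DSS-treated RelaΔhepStat3Δhep libraries and the third untreated wild-type library had 903 to 1283 CPM of Xist, and the other 8 had 0.191 to 29.0. The summed Y-linked transcripts were at 0.0424 to 0.120 CPM in the DSS-treated RelaΔhepStat3Δhep libraries, at 30.1 in the third untreated wild-type library and at 175 to 241 in the others. Sex and DSS treatment therefore cannot be told apart within the RelaΔhepStat3Δhep mice. The second DSS-treated wild-type library had the lowest scaling factor, 0.758 against 0.953 to 1.13 in the others.

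Of the 49 members, 30 had a count in all 12 libraries and 40 passed the filter on low counts and were tested (25 ligands and 15 receptors). The other 9 (Ccl8, Ccl11, Ccl17, Ccl19-ps1, Cxcl3, Cxcl17, Ccr1l1, Ccr4 and Cxcr1) had at most 17 counts in any library. A gene was called when its adjusted p-value over all 17652 tested genes was under 0.05.

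The 2 ligands with the highest mean level over the 12 libraries were Ccl9 and Cxcl12, neither of which was called in any comparison in edgeR with all 12 libraries. Per kilobase of annotated exon, the mean level over the 12 libraries was highest for Ccl9, a macrophage inflammatory protein that acts on Ccr1 (54.3 CPM per kb, lowest 39.2, highest 76.6). Cxcl12, the ligand of Cxcr4 made by stromal and endothelial cells, followed at 35.8 CPM per kb (27.9 to 43.1). Together the group means of Ccl9 and Cxcl12 made up 75.6% of the summed ligand level in untreated wild-type and 72.9% in untreated RelaΔhepStat3Δhep liver, and 38.4% and 44.9% after DSS. Without this pair the ligands summed to 31.8 and 29.3 CPM per kb in untreated and to 136.5 and 120.1 in DSS-treated wild-type and RelaΔhepStat3Δhep liver. Without the second DSS-treated wild-type library the wild-type sum after DSS was 64.6 and the share of the pair 56.4%. Then came Cxcl1 (22.6), Cxcl9 (12.8), Cxcl10 (10.3) and Ccl6 (9.26), whose libraries spread far more widely than those of the leading pair. The levels of these ligands overlapped across libraries, and their order in the mean is not firm. Without the second DSS-treated wild-type library Cxcl1 had a mean of 5.26 CPM per kb, below that of Ccl6 at 8.15. In DSS-treated wild-type liver the mean of Cxcl1 (81.1 CPM per kb) was above that of Ccl9 (50.4), and it rests on that 1 library with 213 CPM per kb (14.97 without it), against 0.594 in the lowest of the 12.

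Receptor transcripts were scarcer: the 18 receptors summed to 9.55 CPM per kb in the mean, against 169.6 for the ligands. Ccr2, the monocyte receptor for Ccl2, had 1.57 CPM per kb, and Cxcr6, the receptor for Cxcl16 on liver NKT cells, had 0.756. Cxcr4 (0.614), Cx3cr1 (0.539) and Cxcr7, a scavenger of Cxcl12 (0.337), came next among the receptors described here. Neighbours from Cxcr6 to Cx3cr1 overlapped across libraries. The same 6 ligands led when levels were set per length of the longest transcript.

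**Figure D1:**
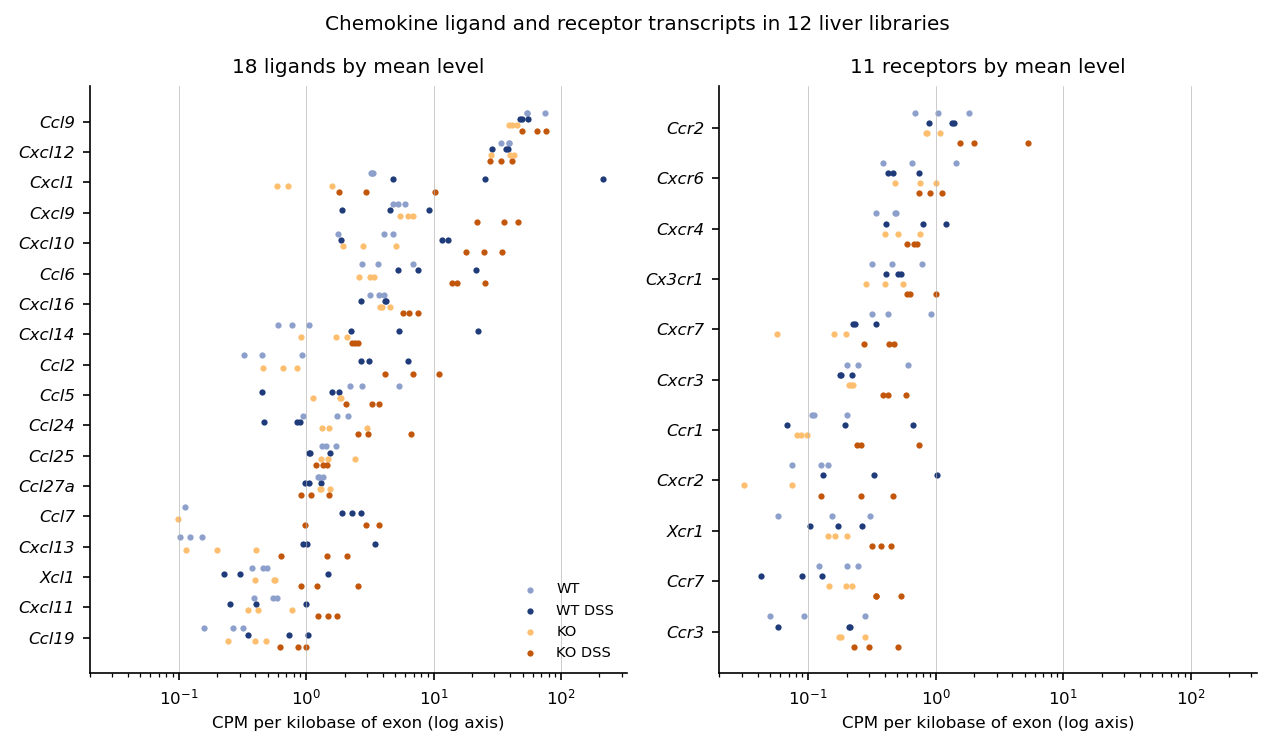
Mean-ranked levels of 18 ligands and 11 receptors, in CPM per kilobase of exon on a log axis. Each point is 1 of the 3 libraries of a group (WT, wild-type; KO, RelaΔhepStat3Δhep), zero values are not drawn, and the points of Ccl9 and Cxcl12 lie between 27.9 and 76.6 in all 4 groups while Cxcl1 runs from 0.594 to 213.

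Of the monocyte chemoattractants, Ccl2 and Ccl7 rose after DSS in both genotypes. Ccl2 (ENSMUSG00000035385, NCBIM37 chr11:81849073-81850955, plus strand) was at 0.513, 0.369 and 1.06 CPM in untreated and 7.18, 3.52 and 3.08 in DSS-treated wild-type liver, and 0.970, 0.524 and 0.742 in untreated and 12.4, 7.83 and 4.72 in DSS-treated RelaΔhepStat3Δhep liver. All 6 DSS-treated libraries lay above all 6 untreated ones. Ccl2 rose in wild-type liver by 2.83 on the log2 scale (SE 0.49, edgeR adjusted p = 0.0214) and in RelaΔhepStat3Δhep liver by 3.48 (SE 0.49, adjusted p = 0.00288).

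Ccl7 (ENSMUSG00000035373, chr11:81859214-81861027), which shares Ccr2 with Ccl2 and also acts on Ccr1 and Ccr3, was near absent without DSS. It was at 0, 0 and 0.0905 CPM in untreated and 1.84, 1.54 and 2.17 in DSS-treated wild-type liver, and 0.0798, 0 and 0 in untreated and 2.97, 2.35 and 0.791 in DSS-treated RelaΔhepStat3Δhep liver. Every DSS-treated library was above every untreated one, and 4 of the 6 untreated libraries had no count. The log2 fold change of Ccl7 was 5.94 (SE 1.07, adjusted p = 0.0279) in wild-type and 6.15 (SE 1.08, adjusted p = 0.00838) in RelaΔhepStat3Δhep liver. The wild-type call was lost without the first or the second untreated or the third DSS-treated wild-type library. It was also lost with the replicate number as a block and with no filter on low counts. Without the third untreated wild-type library the wild-type change was 10.07. Without the first untreated RelaΔhepStat3Δhep library the change in that genotype was 10.19. Those libraries had 6 counts of Ccl7 each, and the other untreated ones none. Ccl12 (ENSMUSG00000035352, chr11:81915347-81916902), a mouse relative of Ccl2, was at 0, 0 and 0 CPM in untreated and 0.0978, 0.143 and 0.251 in DSS-treated wild-type liver, and 0.0798, 0 and 0 in untreated and 0.385, 0.215 and 0.184 in DSS-treated RelaΔhepStat3Δhep liver. No untreated wild-type library had a count of Ccl12, so its level after DSS in wild-type liver was at least 3.92-fold higher, taking a floor of 3 counts per library. Ccl12 was called for the DSS effect averaged over both genotypes (edgeR adjusted p = 0.0225), and its fitted log2 fold change of 4.89 depends on the prior count. In the same gene row on chromosome 11, Ccl11 lies between Ccl7 and Ccl12 and Ccl8 lies beyond Ccl12, and neither exceeded 0.151 CPM in any library. Across the 12 libraries Ccl2 tracked Ccl7 (Pearson r = 0.96 on log2 values) and Ccl12 (r = 0.90), a description of libraries that share the same groups.

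In wild-type liver 3 of the 40 members were called (7.5%), namely Ccl2, Ccl7 and Cxcl13, and all were higher after DSS. Over all genes 0.685% were called in this comparison, and 0.453% were called higher. The median log2 fold change of the 40 members was 0.20 against 0.02 over all genes, and it was the same with the 2 genes that had a group at 0 (Ccl12 and Ccr10) set to their bounds. Without the first or the second untreated wild-type library the count fell to 0, and a fit on the wild-type libraries alone also called 0.

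In RelaΔhepStat3Δhep liver 7 of the 40 (17.5%) were called, against 7.02% of all genes and 4.57% called higher. They were Ccl2, Ccl7, Ccl6, Cxcl9, Cxcl10, Cxcl13 and Cxcl16, and again all were higher after DSS. The median log2 fold change of the members was 1.34, against -0.01 over all genes. The 3 DSS-treated libraries lay above the 3 untreated ones in 29 of the 40 members, against 17.8% of all genes, and in wild-type liver this held for 8 of the 40, against 9.49%. These RelaΔhepStat3Δhep contrasts also compare libraries with high Xist against libraries with low Xist. With sex entered as a covariate, read from Xist, 0 of the 7 were called (4 of all genes were). For every gene this sex term rests on the third untreated wild-type library, the only one whose coding differs from the rest of its group. Its sex signal was mixed, with 1143 CPM of Xist and 30.1 of Y-linked transcripts. All 7 still had a positive log2 fold change, and the median of their standard errors was 1.90 times as large. For Ccl7 the log2 fold change moved from 6.15 to 0.42 in that fit, and its sex term rests on the 1 untreated wild-type library with high Xist, which is also the only untreated wild-type library with counts of Ccl7. For Ccl2 it moved to 2.22 (SE 0.80, adjusted p = 0.352). The count fell to 3 without the first untreated RelaΔhepStat3Δhep library and to 2 without the second, without the third, or without the first DSS-treated RelaΔhepStat3Δhep library. Ccl2 and Ccl7 remained called in all 12 fits that left out 1 library each.

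Averaged over both genotypes, 10 of 40 members were called (25%), against 7.31% of all genes, and all 10 were higher after DSS. Beside Ccl2, Ccl7 and Ccl12 they were Ccl6, Ccl19, Cxcl9, Cxcl10, Cxcl13, Cxcl14 and, as the only receptor, Cxcr2. The wild-type change of Cxcl9 was -0.02 on the log2 scale, and its averaged call was lost in 9 of the 12 fits without 1 library, kept without the first or the second DSS-treated wild-type or the third DSS-treated RelaΔhepStat3Δhep library, and lost with the replicate number as a block and with no filter on low counts. The averaged call of Cxcl10 was lost in 7 of these fits and with no filter on low counts, and that of Ccl12 in 4 and in the DESeq2 test. With the sex covariate Ccl2, Ccl7 and Cxcl13 remained. The calls of Ccl2, Ccl6, Ccl7 and Cxcl13 were kept in all 12 fits that left out 1 library. The count was 4 without the second untreated wild-type library or the first DSS-treated RelaΔhepStat3Δhep library, 5 without the second untreated or second DSS-treated RelaΔhepStat3Δhep library, and 6 without the first untreated library of either genotype. It was 5 with no filter on low counts and 6 with a minimum of 10 counts in every library, a filter that leaves out Ccl7, Ccl12, Ccl19, Cxcl13 and Cxcr2 before the test.

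**Figure D2:**
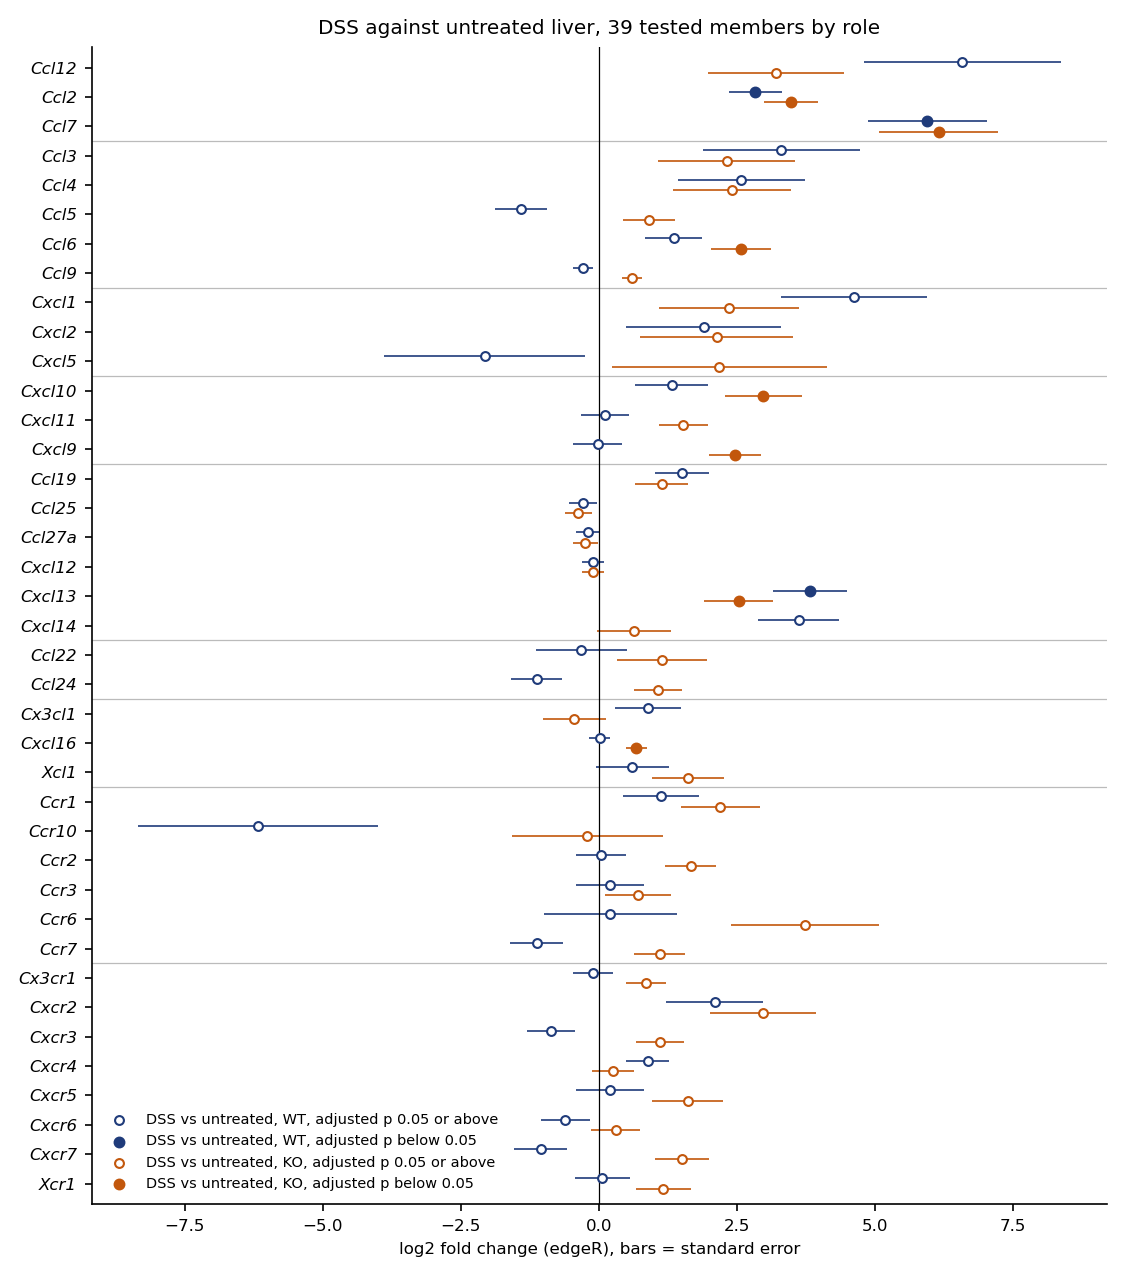
Log2 fold change of DSS-treated over untreated liver in edgeR for 39 of the 40 tested members, ordered by role, in wild-type (WT) and RelaΔhepStat3Δhep (KO) mice. Bars are standard errors and filled points have an adjusted p below 0.05: 3 in wild-type and 7 in RelaΔhepStat3Δhep liver, all to the right of 0. The values of Ccl12 and Ccr10 in wild-type liver depend on the prior count, since 1 group has no count.

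Among the macrophage inflammatory proteins, Ccl6 (ENSMUSG00000018927, chr11:83401384-83406589), a ligand of Ccr1 made by myeloid cells, was at 12.4, 4.95 and 6.56 CPM in untreated and 13.6, 38.4 and 9.35 in DSS-treated wild-type liver, and 6.13, 5.67 and 4.63 in untreated and 45.6, 24.8 and 27.3 in DSS-treated RelaΔhepStat3Δhep liver. In RelaΔhepStat3Δhep liver all treated libraries were above all untreated ones, and Ccl6 rose by 2.57 on the log2 scale (SE 0.54, adjusted p = 0.0206). This call was lost in 4 of the 12 fits without 1 library (any of the untreated or the first DSS-treated RelaΔhepStat3Δhep library). In wild-type liver 2 of 3 treated libraries were above the untreated range, and the log2 fold change was 1.35 (SE 0.51, adjusted p = 0.260), which the DESeq2 test called (adjusted p = 0.0440). Its neighbour Ccl9 was at 165, 165 and 230 CPM in untreated and 166, 150 and 144 in DSS-treated wild-type liver, and 138, 119 and 126 in untreated and 233, 151 and 196 in DSS-treated RelaΔhepStat3Δhep liver. Ccl9 had log2 fold changes of -0.28 (SE 0.18, adjusted p = 0.515) in wild-type and 0.60 (SE 0.18, adjusted p = 0.0639) in RelaΔhepStat3Δhep liver, and the latter was called by the DESeq2 test and without the second DSS-treated RelaΔhepStat3Δhep library. The macrophage inflammatory protein genes Ccl3 and Ccl4 stayed at or below 1.03 CPM in every library. Their log2 fold changes were 3.31 (SE 1.42) and 2.58 (SE 1.15) in wild-type and 2.31 (SE 1.24) and 2.41 (SE 1.06) in RelaΔhepStat3Δhep liver. Neither gene was called in either genotype. The averaged change of Ccl4 was not called in edgeR with all libraries (adjusted p = 0.0785), while the DESeq2 test called it (0.01735). In edgeR it was called without the third untreated wild-type library (0.01105), the only untreated wild-type one with counts of Ccl4. Ccl5 (RANTES), a T cell and monocyte attractant, was at 5.13, 2.10 and 2.65 CPM in untreated and 1.54, 1.75 and 0.429 in DSS-treated wild-type liver, and 1.79, 1.77 and 1.09 in untreated and 3.60, 3.16 and 1.98 in DSS-treated RelaΔhepStat3Δhep liver. It was lower in every DSS-treated wild-type library than in any untreated one (log2 fold change -1.41, SE 0.48, adjusted p = 0.184), and the RelaΔhepStat3Δhep libraries were all higher after DSS (0.91, SE 0.47, adjusted p = 0.260).

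The ELR ligands are shown with the sequence upstream of their start sites, since Cxcl1, Cxcl2 and Cxcl3 belong to 1 cluster on chromosome 5 and share short motifs there. The sequences come from RefSeq promoters of GRCm38.p6 that were placed on NCBIM37 by exact match, and each line covers bases 130 to 31 before the start, on the plus strand (Cxcl1, chr5:91320141-91320240; Cxcl2, chr5:91332795-91332894; Cxcl3, chr5:91214997-91215096). Capitals mark matches to the kappa B letters, GGG and TCC with any 4 bases between them, on either strand.
Cxcl1: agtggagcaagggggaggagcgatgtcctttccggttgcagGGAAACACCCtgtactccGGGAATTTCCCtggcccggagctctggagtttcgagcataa
Cxcl2: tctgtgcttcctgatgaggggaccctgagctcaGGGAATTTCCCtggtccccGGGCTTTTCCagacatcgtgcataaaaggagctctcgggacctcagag
Cxcl3: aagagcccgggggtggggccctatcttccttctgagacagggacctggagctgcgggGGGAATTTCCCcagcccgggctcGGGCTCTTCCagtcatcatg
Each of the 3 windows held 3 matches, of which 2 overlap on opposite strands, offset by 1 base. Of 34 members with a RefSeq promoter, counted from 250 bases before to 50 after the start, 11 (32.4%) held at least 1 match in any of their promoters, against 21.3% of all 27025 genes with a promoter. A match describes letters and is not a binding site.

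With these matches in common, the 3 genes had very different levels. Cxcl1 (ENSMUSG00000029380) was at 3.16, 3.18 and 3.09 CPM in untreated and 4.57, 203 and 24.0 in DSS-treated wild-type liver, and 0.691, 0.566 and 1.52 in untreated and 2.80, 1.71 and 9.83 in DSS-treated RelaΔhepStat3Δhep liver. The second DSS-treated wild-type library stood far above the rest, and the other 2 treated wild-type libraries were above the untreated ones. The log2 fold change was 4.62 (SE 1.32, adjusted p = 0.153) in wild-type and 2.36 (SE 1.27, adjusted p = 0.298) in RelaΔhepStat3Δhep liver, so Cxcl1 was not called in either, whereas the DESeq2 test called it in wild-type liver. The averaged change was 3.49 (SE 0.91, adjusted p = 0.0528), and it was called by the DESeq2 test (adjusted p = 0.000227), with at least 10 counts in every library (0.0423) and without the first (0.0186) or the second (change of 2.26, adjusted p = 0.0494) DSS-treated wild-type library. Cxcl2, the close paralog of Cxcl1, did not exceed 0.637 CPM, and its highest library was again the second DSS-treated wild-type one. Cxcl3 had counts in 1 library only, at 0.0603 CPM. Cxcl5 was at 1.03 CPM in the first untreated wild-type library and at most 0.371 elsewhere.

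The receptor of these ligands, Cxcr2 (ENSMUSG00000026180, chr1:74200563-74207812), is the main chemokine receptor of neutrophils. It was at 0.382, 0.437 and 0.226 CPM in untreated and 0.992, 3.12 and 0.399 in DSS-treated wild-type liver, and 0.226, 0 and 0.0945 in untreated and 1.40, 0.383 and 0.791 in DSS-treated RelaΔhepStat3Δhep liver. The DSS effect averaged over genotypes was 2.54 on the log2 scale (SE 0.65, adjusted p = 0.0346), whereas neither genotype passed alone (adjusted p = 0.296 in wild-type and 0.0808 in RelaΔhepStat3Δhep liver). The averaged call was lost in 7 of the 12 fits without 1 library, namely any 1 of the untreated wild-type libraries, the second DSS-treated wild-type, the third untreated, the first DSS-treated or the third DSS-treated RelaΔhepStat3Δhep library, and also with the replicate number as a block, with no filter on low counts and with the sex covariate. Cxcr2 and Cxcl1 were both highest in the library that also had the most neutrophil marker RNA. The summed CPM of 8 neutrophil markers was 9.03, 113 and 4.56 in DSS-treated wild-type liver, 29.0, 11 and 15 in DSS-treated RelaΔhepStat3Δhep liver and 1.82 to 5.84 in the untreated libraries. The defining marker Ly6g was at 0 in 10 of the 12 libraries and at 0.892 CPM in the second DSS-treated wild-type library. Across the 12 libraries Cxcr2 had a Spearman correlation of 0.85 with this sum, and Cxcl1 one of 0.59. The part of neutrophil numbers in these values was not tested. Without the second DSS-treated wild-type library and the third untreated wild-type library, a pair left out after the data were seen, the averaged test no longer called Cxcr2 or Ccl12, and 9 members were called.

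Of the interferon-inducible ligands, Cxcl9 and Cxcl10 rose after DSS in RelaΔhepStat3Δhep liver and were not called in wild-type liver, and the difference between the 2 responses did not pass its own test (adjusted p = 0.119 and 0.400). Cxcl9, Cxcl10 and Cxcl11 lie in a row on chromosome 5, and Cxcl10 is shown with its upstream sequence because its window held both kappa B matches and a match to the interferon-stimulated response element (ISRE, the letters GAAA repeated after any 2 bases). The line covers the 250 bases before the start on the minus strand (NCBIM37 chr5:92777916-92778165), and capitals mark 1 ISRE match followed by 2 kappa B matches.
Cxcl10: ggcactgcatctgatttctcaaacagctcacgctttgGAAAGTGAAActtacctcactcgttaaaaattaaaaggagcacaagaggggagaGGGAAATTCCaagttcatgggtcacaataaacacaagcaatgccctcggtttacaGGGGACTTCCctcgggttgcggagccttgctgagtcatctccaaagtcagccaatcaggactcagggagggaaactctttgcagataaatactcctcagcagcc
An ISRE match was found for 3 of the 34 members (8.8%; Cxcl10, Cxcl14 and Ccl19) and for 4.0% of all genes with a promoter. The Cxcl9 window held none of the motifs searched.

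Cxcl9 (ENSMUSG00000029417, chr5:92750357-92757105) was at 15.2, 13.8 and 17.4 CPM in untreated and 26.9, 5.54 and 13.2 in DSS-treated wild-type liver, and 15.8, 19.9 and 18.3 in untreated and 103, 132 and 63.7 in DSS-treated RelaΔhepStat3Δhep liver. The DSS-treated RelaΔhepStat3Δhep libraries were the 3 highest of the 12, and the DSS-treated wild-type libraries straddled the untreated range. Cxcl9 rose in RelaΔhepStat3Δhep liver by 2.47 on the log2 scale (SE 0.47, adjusted p = 0.0146; lost in 4 of the 12 fits without 1 library), while the wild-type log2 fold change was -0.02 (SE 0.45, adjusted p = 0.990). Cxcl10 (ENSMUSG00000034855, chr5:92775664-92777915) was at 2.68, 6.23 and 7.32 CPM in untreated and 19.8, 2.83 and 17.7 in DSS-treated wild-type liver, and 4.27, 2.97 and 7.68 in untreated and 27.3, 52.4 and 37.5 in DSS-treated RelaΔhepStat3Δhep liver. In wild-type liver 2 of the 3 DSS-treated libraries were high and the second was within the untreated range. Cxcl10 rose in RelaΔhepStat3Δhep liver by 2.97 (SE 0.69, adjusted p = 0.0334), and the wild-type log2 fold change was 1.31 (SE 0.66, adjusted p = 0.401). Its call was lost in 7 of the 12 fits without 1 library (any of the 6 RelaΔhepStat3Δhep libraries or the second untreated wild-type one) and with no filter on low counts. Cxcl11 (ENSMUSG00000060183), which the annotation holds as a processed transcript, was at 2.08, 1.49 and 2.25 CPM in untreated and 3.76, 0.955 and 1.54 in DSS-treated wild-type liver, and 1.59, 1.32 and 2.93 in untreated and 6.56, 4.71 and 5.65 in DSS-treated RelaΔhepStat3Δhep liver. All DSS-treated RelaΔhepStat3Δhep libraries were above all others, with a log2 fold change of 1.53 (SE 0.44, adjusted p = 0.0536). Cxcl11 was called in RelaΔhepStat3Δhep liver by the DESeq2 test (adjusted p = 0.0106) and in other edgeR fits, with adjusted p from 0.0173 to 0.0494, namely with the replicate number as a block, with at least 10 counts in every library, on the RelaΔhepStat3Δhep libraries alone, without the first or the second DSS-treated wild-type library and without the pair of libraries left out above. Cxcl10 and Cxcl11 overlap Art3 on the opposite strand, as Ccl2 does Gm17268, Ccl6 E230016K23Rik, Ccl19 4930578G10Rik and Cxcr6 Fyco1, and whether the counting used strand is not given in the sources used here.

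Their receptor Cxcr3, found on activated T and NK cells, was at 1.05, 0.424 and 0.347 CPM in untreated and 0.307, 0.382 and 0.311 in DSS-treated wild-type liver, and 0.386, 0.359 and 0.378 in untreated and 1.01, 0.670 and 0.735 in DSS-treated RelaΔhepStat3Δhep liver. It was not called in either genotype (log2 fold change -0.87, SE 0.44, in wild-type and 1.10, SE 0.43, in RelaΔhepStat3Δhep liver, adjusted p = 0.391 and 0.140). Cxcr3 is the only member on chromosome X, and the RelaΔhepStat3Δhep groups also differ in sex-linked transcripts. The summed CPM of 6 NK cell markers was 5.34 to 12.9 in DSS-treated wild-type liver and 11.7 to 27.8 in DSS-treated RelaΔhepStat3Δhep liver, against 5.56 to 12 and 5.77 to 6.40 untreated. The T cell marker sum was 3.35 to 8.20 in untreated and 1.94 to 3.27 in DSS-treated wild-type liver, without overlap, and 3.85 to 6.74 and 4.84 to 7.85 in RelaΔhepStat3Δhep liver. Across the 12 libraries Cxcr3 had a Spearman correlation of 0.85 with the T cell sum and 0.43 with the NK cell sum. Their part in the values of Cxcl9 and Cxcr3 was not tested.

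Of the ligands usually called homeostatic, which position cells in lymphoid and stromal niches, 3 of 6 tested were called in the averaged comparison, all higher, where 4.82% of all genes were called higher. Cxcl13 (ENSMUSG00000023078, chr5:96385945-96390086), which attracts B cells through Cxcr5, was at 0.145, 0.178 and 0.121 CPM in untreated and 1.12, 4.06 and 1.18 in DSS-treated wild-type liver, and 0.478, 0.234 and 0.135 in untreated and 2.45, 1.72 and 0.749 in DSS-treated RelaΔhepStat3Δhep liver. All treated libraries were above all untreated ones. Cxcl13 rose by 3.82 (SE 0.67, adjusted p = 0.0219) in wild-type and by 2.53 (SE 0.62, adjusted p = 0.0302) in RelaΔhepStat3Δhep liver. The wild-type call was lost in 3 of the 12 fits without 1 library (any of the untreated wild-type ones) and the RelaΔhepStat3Δhep call in 4 (the second or the third untreated, or the first or the second DSS-treated RelaΔhepStat3Δhep one), and both with the sex covariate. Its receptor Cxcr5 did not exceed 0.480 CPM. Ccl19, a ligand of Ccr7, was at 0.276, 0.232 and 0.136 CPM in untreated and 0.894, 0.302 and 0.636 in DSS-treated wild-type liver, and 0.213, 0.345 and 0.418 in untreated and 0.870, 0.742 and 0.537 in DSS-treated RelaΔhepStat3Δhep liver, and its averaged log2 fold change was 1.32 (SE 0.34, adjusted p = 0.0341). This call of Ccl19 was lost in 8 of the 12 fits without 1 library (the exceptions were the first untreated and second DSS-treated wild-type and the third untreated and the third DSS-treated RelaΔhepStat3Δhep libraries), with the replicate number as a block, with no filter on low counts and with the sex covariate.

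Cxcl14 (ENSMUSG00000021508, chr13:56390008-56397912), an epithelial chemokine without an agreed receptor, is shown with its upstream window because it held an ISRE match and a match to the Stat-type gamma-activated site (GAS, letters TTCNNNGAA). The line covers the 250 bases before the start on the minus strand (NCBIM37 chr13:56397913-56398162), and capitals mark the GAS match followed by the ISRE match.
Cxcl14: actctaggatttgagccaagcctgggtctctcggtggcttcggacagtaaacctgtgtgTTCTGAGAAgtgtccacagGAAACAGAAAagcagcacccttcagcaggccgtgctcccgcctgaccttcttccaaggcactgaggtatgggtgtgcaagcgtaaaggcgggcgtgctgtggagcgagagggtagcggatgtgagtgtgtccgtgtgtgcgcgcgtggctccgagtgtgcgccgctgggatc
A GAS match was found for 4 of the 34 members (11.8%) and for 9.6% of all genes with a promoter. Cxcl14 was at 1.41, 1.93 and 1.09 CPM in untreated and 4.11, 40.6 and 9.81 in DSS-treated wild-type liver, and 3.11, 3.81 and 1.66 in untreated and 4.67, 4.44 and 4.20 in DSS-treated RelaΔhepStat3Δhep liver. The treated wild-type libraries were all above the untreated ones, with the second again the highest, whereas the treated RelaΔhepStat3Δhep libraries sat just above the untreated ones. The log2 fold change was 3.62 (SE 0.73, adjusted p = 0.0591) in wild-type and 0.63 (SE 0.67, adjusted p = 0.616) in RelaΔhepStat3Δhep liver. Without the second DSS-treated library the wild-type change was 2.23 and was called (adjusted p = 0.0192), as it was without the first (4.09, adjusted p = 0.00962) and by the DESeq2 test with all libraries (adjusted p = 1.07e-07). The averaged change of 2.13 was called (SE 0.49, adjusted p = 0.0286), and this call was lost in 9 of the 12 fits without 1 library. In contrast, Cxcl12, Ccl25 and Ccl27a, the last being a skin chemokine whose gene overlaps Il11ra1 on the opposite strand, had log2 fold changes between -0.37 and -0.11 in both genotypes. The interval of the Cxcl12 change was narrow, with a standard error of 0.20.

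**Figure D3:**
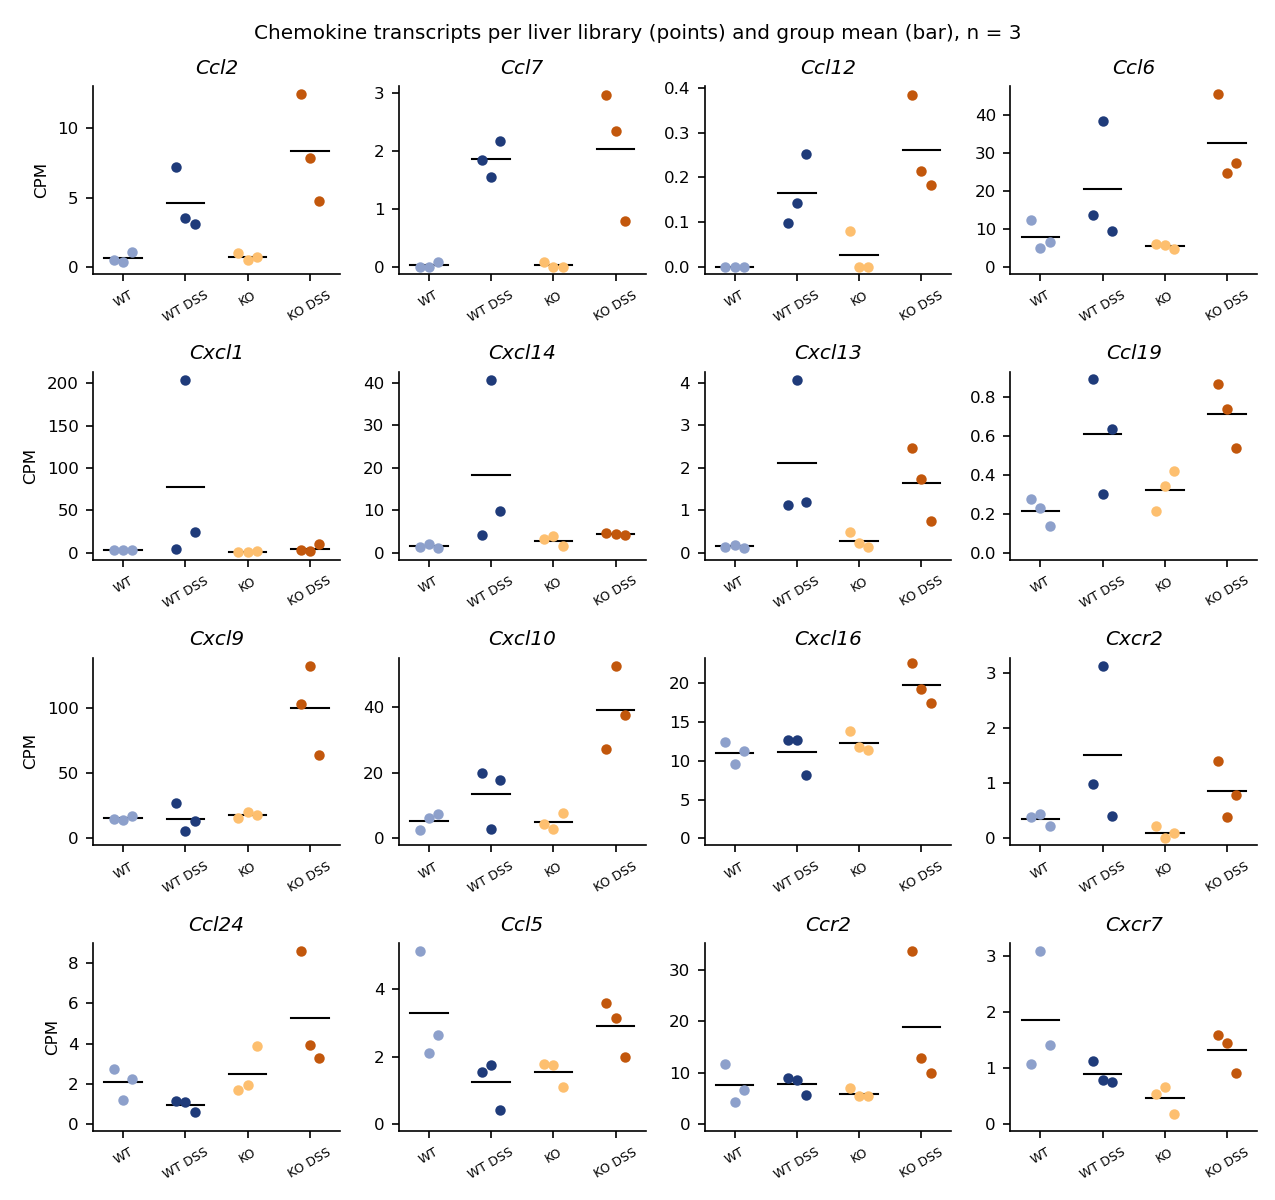
Level in CPM of 16 members in each of the 12 libraries, with 3 points per group and a bar at the group mean (linear axes that differ between panels). Ccl2, Ccl7 and Cxcl13 are higher in all DSS-treated libraries of both genotypes, Cxcl9 reaches 63.7 to 132 CPM in DSS-treated RelaΔhepStat3Δhep (KO) liver, and Cxcl1 and Cxcl14 peak in 1 DSS-treated wild-type (WT) library.

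Among the remaining ligands, Cxcl16 (ENSMUSG00000018920, chr11:70267485-70273486), a membrane-bound ligand of Cxcr6 on macrophages and endothelium, was at 12.4, 9.57 and 11.2 CPM in untreated and 12.7, 12.6 and 8.11 in DSS-treated wild-type liver, and 13.8, 11.8 and 11.4 in untreated and 22.6, 19.2 and 17.4 in DSS-treated RelaΔhepStat3Δhep liver. It rose in RelaΔhepStat3Δhep liver by 0.68 (SE 0.18, adjusted p = 0.0444), a smaller change than the other called members, and all 3 treated libraries were above every other library. In wild-type liver the log2 fold change was 0.01 (SE 0.18, adjusted p = 0.987). This call was lost in 9 of the 12 fits without 1 library, and the gene overlaps Zmynd15 on the opposite strand. The eosinophil attractant Ccl24 (ENSMUSG00000004814, chr5:136045807-136048913), a ligand of Ccr3, was at 2.76, 1.22 and 2.26 CPM in untreated and 1.15, 1.10 and 0.606 in DSS-treated wild-type liver, and 1.72, 1.96 and 3.86 in untreated and 8.59, 3.93 and 3.28 in DSS-treated RelaΔhepStat3Δhep liver. It was lower in each DSS-treated wild-type library than in any untreated one (log2 fold change -1.13, SE 0.45, adjusted p = 0.270), and in RelaΔhepStat3Δhep liver the change was 1.07 (SE 0.44, adjusted p = 0.157). Cx3cl1 (fractalkine) did not exceed 1.35 CPM, and Xcl1 (lymphotactin) was highest in the first DSS-treated RelaΔhepStat3Δhep library at 1.33 CPM. Neither was called in any comparison with all libraries, and Xcl1 was called between DSS-treated genotypes without the first DSS-treated wild-type library (log2 difference 2.54, adjusted p = 0.0475).

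In edgeR with all libraries 0 of the 15 tested receptors were called within either genotype, while the DESeq2 test called 5 in RelaΔhepStat3Δhep liver (Ccr1, Ccr2, Cxcr2 and Cxcr7 among them, all higher) and 0 in wild-type liver. In RelaΔhepStat3Δhep liver 11 of 15 had an unadjusted p under 0.05 in edgeR, all 11 higher after DSS, against 24.1% of all genes in either direction and 14% higher. In wild-type liver 5 of 15 did, 2 of them higher, against 14.5%. Ccr2 (ENSMUSG00000049103, chr9:124016689-124028296) was at 11.8, 4.39 and 6.61 CPM in untreated and 8.97, 8.64 and 5.63 in DSS-treated wild-type liver, and 6.92, 5.46 and 5.41 in untreated and 33.7, 12.8 and 9.96 in DSS-treated RelaΔhepStat3Δhep liver. In wild-type liver the groups overlapped (log2 fold change 0.03, SE 0.45, adjusted p = 0.987), and in RelaΔhepStat3Δhep liver all treated libraries were above the untreated ones (1.66, SE 0.46, adjusted p = 0.0551). In other edgeR fits Ccr2 was called in RelaΔhepStat3Δhep liver, with adjusted p = 0.0183 with the replicate number as a block, 0.0489 with at least 10 counts in every library and 0.0304 to 0.0496 without the first or second untreated wild-type or the third DSS-treated RelaΔhepStat3Δhep library. Ccr1, the neutrophil and monocyte receptor for Ccl6, Ccl9 and Ccl7, was at 0.316, 0.301 and 0.573 CPM in untreated and 0.545, 1.86 and 0.192 in DSS-treated wild-type liver, and 0.279, 0.248 and 0.23 in untreated and 2.08, 0.682 and 0.735 in DSS-treated RelaΔhepStat3Δhep liver. Its highest wild-type library was again the second DSS-treated one. Ccr1 was called in RelaΔhepStat3Δhep liver without the second or the third DSS-treated wild-type library (adjusted p = 0.0290 and 0.0394) and in a fit on the RelaΔhepStat3Δhep libraries alone (0.0278), as was Cxcr2 without the second (0.0483) and Xcr1 in the fit on RelaΔhepStat3Δhep libraries alone (0.0425). Ccr6, the Ccl20 receptor, did not exceed 0.371 CPM, although its 3 DSS-treated RelaΔhepStat3Δhep libraries were the 3 highest. Ccr10 had no count in DSS-treated wild-type liver and 0.0603 to 0.164 CPM in untreated wild-type liver, which is at least 2.75-fold lower after DSS on a floor of 3 counts per library. It was not called (adjusted p = 0.221), and it overlaps Cntnap1 on the opposite strand. The patrolling monocyte receptor Cx3cr1 was at 2.92, 1.18 and 1.69 CPM in untreated and 1.98, 1.88 and 1.51 in DSS-treated wild-type liver, and 1.05, 2.08 and 1.5 in untreated and 3.78, 2.21 and 2.35 in DSS-treated RelaΔhepStat3Δhep liver. The Cxcl12 receptor Cxcr4 was at 0.868, 0.875 and 0.619 CPM in untreated and 1.44, 2.18 and 0.740 in DSS-treated wild-type liver, and 0.917, 1.35 and 0.729 in untreated and 1.07, 1.29 and 1.23 in DSS-treated RelaΔhepStat3Δhep liver. Both overlapped between treated and untreated wild-type libraries, and neither was called. In RelaΔhepStat3Δhep liver Cxcr4 overlapped as well, whereas all DSS-treated libraries of Cx3cr1 were above the untreated ones (log2 fold change 0.85, SE 0.36, adjusted p = 0.1715). They were also above the DSS-treated wild-type ones. Xcr1, which marks cross-presenting dendritic cells and binds Xcl1, was at 1.37, 0.260 and 0.679 CPM in untreated and 1.17, 0.462 and 0.769 in DSS-treated wild-type liver, and 0.904, 0.717 and 0.634 in untreated and 1.98, 1.66 and 1.41 in DSS-treated RelaΔhepStat3Δhep liver, and all 3 DSS-treated RelaΔhepStat3Δhep libraries were above the other 9.

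The marker transcripts of several cell types also differed between the groups. The summed CPM of 8 Kupffer cell markers was 293 to 600 in untreated and 461 to 1012 in DSS-treated wild-type liver, and 360 to 397 and 712 to 1106 in RelaΔhepStat3Δhep liver. Of these 8 markers, 7 were called higher in RelaΔhepStat3Δhep liver and 0 in wild-type liver in edgeR, where 6 had an unadjusted p under 0.05 and the DESeq2 test also called 0. Over all genes 4.57% and 0.453% were called higher in these comparisons. The monocyte and macrophage marker sum was 44.9 to 57.4 and 58.8 to 113 in wild-type and 41.8 to 67.5 and 127 to 243 in RelaΔhepStat3Δhep liver. Of its 4 markers, 3 were called higher in RelaΔhepStat3Δhep liver and 1, Fcgr1, in wild-type liver, where Chil3 (log2 fold change 3.28, adjusted p = 0.140), Lyz2 (0.67, adjusted p = 0.309) and Ms4a7 (-1.13, adjusted p = 0.660) were not called. Over the 12 libraries the Spearman correlation with the Kupffer cell sum was 0.97 for Ccl6, 0.85 for Ccl2, 0.71 for Cxcl16, 0.49 for Ccl9 and 0.26 for Ccl24, and that of Ccr2 with the monocyte sum was 0.85. Ccr1 had a correlation of 0.90 with the neutrophil sum, Xcr1 and Ccr7 of 0.90 and 0.55 with the dendritic cell sum, and Cxcr5 and its ligand Cxcl13 of 0.53 and 0.03 with the B cell sum. These correlations describe libraries that share groups and differ in sequencing depth. The hepatocyte marker sum was 74840 to 125500 CPM in DSS-treated wild-type and 122100 to 160900 CPM in DSS-treated RelaΔhepStat3Δhep liver, against 104300 to 130000 in the untreated libraries, and most of it was Alb. Of the 5 hepatocyte markers tested, 3 had a negative log2 fold change in RelaΔhepStat3Δhep liver, among them Hnf4a, which was called lower (-0.70, adjusted p = 0.0325), and Tat (-1.20, adjusted p = 0.111). The part of cell numbers in the changes of the members was not tested.

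**Figure D4:**
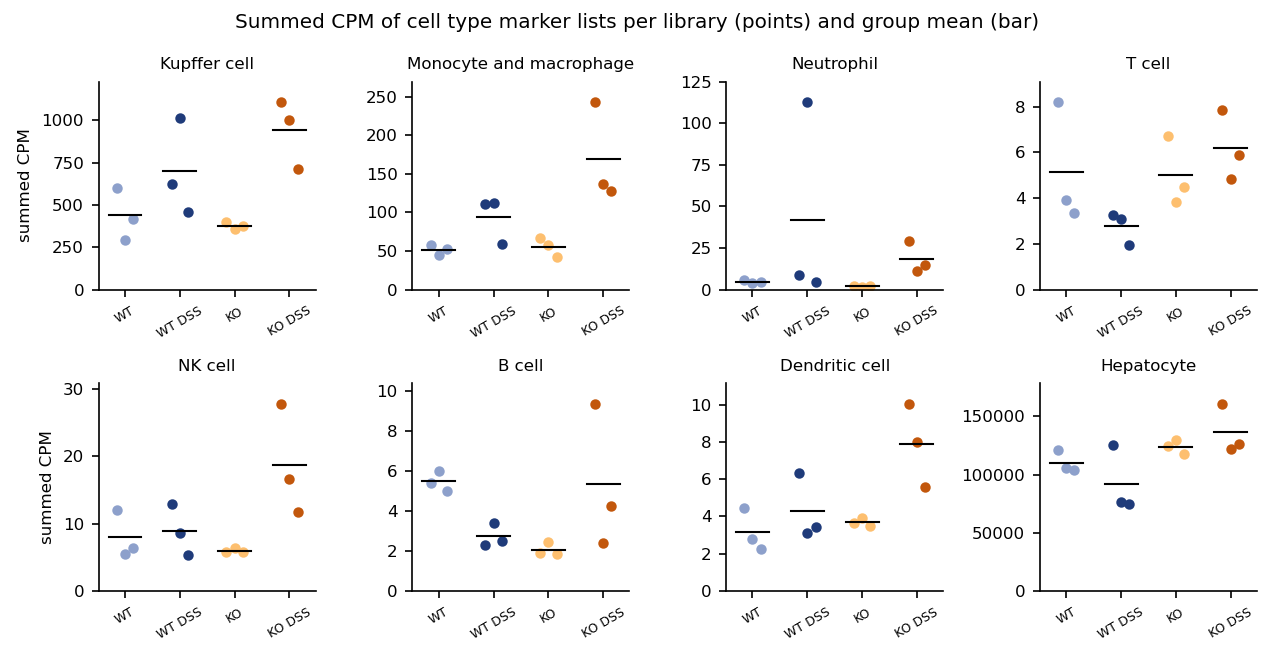
Summed CPM of cell type marker lists in each of the 12 libraries, with 3 points per group (WT, wild-type; KO, RelaΔhepStat3Δhep) and a bar at the group mean, on linear axes from 0. The Kupffer cell sum reaches 712 to 1106 in DSS-treated RelaΔhepStat3Δhep liver, and the neutrophil sum is 113 in 1 DSS-treated wild-type library and at most 29.0 in the others.

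Genes that act with the receptors were followed in a list of 35, of which 31 were tested, comprising adhesion molecules, receptors of other chemoattractants and signalling proteins for migration. In RelaΔhepStat3Δhep liver, where the groups also differ in sex-linked transcripts, 9 rose and 0 fell, against 4.57% of all genes called higher. In the averaged comparison 15 rose and 0 fell, against 4.82% of all genes called higher. In wild-type liver 0 of 31 were called in edgeR, with 13 at an unadjusted p under 0.05 and 8 called by the DESeq2 test. Itgal and Itgb2, the 2 chains of the integrin LFA-1, rose by 1.05 and 1.22 on the log2 scale in RelaΔhepStat3Δhep liver (adjusted p = 0.0134 and 0.0336). The complement receptor C5ar1 rose by 1.67 (adjusted p = 0.0185), the formyl peptide receptor Fpr1 by 1.03 (adjusted p = 0.0207) and the chemerin-binding receptor Ccrl2 by 1.07 (adjusted p = 0.0132). Icam1, the endothelial partner of LFA-1, was called in the averaged comparison (log2 fold change 0.92, SE 0.21, adjusted p = 0.0194).

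Between untreated RelaΔhepStat3Δhep and untreated wild-type liver 0 of the 40 members passed the edgeR test at the adjusted threshold, where 0.0623% of all genes were called. At an unadjusted p under 0.05 there were 3 members, all lower in RelaΔhepStat3Δhep liver, against 11.7% of all genes. They were Cxcr7 (log2 fold change -2.00, SE 0.49, adjusted p = 0.153), Ccl9 (-0.54, SE 0.18, adjusted p = 0.291) and Ccl5 (-1.09, SE 0.47, adjusted p = 0.391). Cxcr7 (ENSMUSG00000044337) was at 1.06, 3.08 and 1.40 CPM in untreated wild-type and 0.532, 0.662 and 0.189 CPM in untreated RelaΔhepStat3Δhep liver, with no overlap. The DESeq2 test called Cxcr7 and no other member. In 7 members the untreated RelaΔhepStat3Δhep libraries lay below all untreated wild-type ones and in 0 above, against 10.7% and 9.56% of all genes. Among the marker sums, that of neutrophils also did not overlap, at 3.745 to 5.84 CPM in untreated wild-type and 1.82 to 2.26 in untreated RelaΔhepStat3Δhep liver. The cholangiocyte marker sum did not overlap in the other direction, at 6.02 to 9.01 and 9.66 to 14.4 CPM. The B cell marker sum did not overlap either, at 5.01 to 6.01 CPM in untreated wild-type and 1.86 to 2.43 in untreated RelaΔhepStat3Δhep liver. Of 5 B cell markers, 4 had an unadjusted p under 0.05 in edgeR, all lower, and the DESeq2 test called 1.

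After DSS, Ccl24 and Cxcl9 were called between genotypes, 2 of the 40 members (5%) against 0.334% of all genes, and both were higher in RelaΔhepStat3Δhep liver. The log2 difference was 2.47 (SE 0.46, adjusted p = 0.0486) for Ccl24 and 2.71 (SE 0.47, adjusted p = 0.0491) for Cxcl9. In both genes the lowest RelaΔhepStat3Δhep library was above the highest wild-type library, at 3.28 against 1.15 CPM for Ccl24 and at 63.7 against 26.9 CPM for Cxcl9. Such a gap, with RelaΔhepStat3Δhep higher, was seen in 13 of the 40 members against 8.8% of all genes, and the opposite gap in 0 against 7.98%. The median log2 difference of the members was 0.72, against 0.00 over all genes.
Both adjusted p-values were close to the threshold. The call of Ccl24 was lost in 11 and that of Cxcl9 in 10 of the 12 fits that left out 1 library. Both were also lost with the replicate number as a block and in a fit on only the DSS-treated libraries, and Cxcl9 with no filter on low counts. The count ran from 0 without any 1 of the untreated libraries, of the DSS-treated RelaΔhepStat3Δhep libraries or the third DSS-treated wild-type library to 6 without the first DSS-treated wild-type library, and it was 1 (Cxcl9) without the second. With the sex covariate 0 members were called, and these groups also differ in their sex-linked transcripts in all 6 libraries.

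Next in order were Ccr7, the receptor that takes dendritic cells and T cells to lymph nodes (log2 difference 2.22, SE 0.48, adjusted p = 0.0783), and Cxcl16 (0.82, SE 0.18, adjusted p = 0.0838). Ccr7 was at 0.0838, 0.255 and 0.177 CPM in DSS-treated wild-type and 1.06, 0.670 and 0.678 CPM in DSS-treated RelaΔhepStat3Δhep liver. Cxcl1 (-4.02, SE 1.28, adjusted p = 0.224) and Cxcl14 (-2.03, SE 0.68, adjusted p = 0.232) pointed the other way, yet in each the wild-type libraries overlapped the RelaΔhepStat3Δhep ones. The DESeq2 test called 7 members, of which Ccl24, Cxcl9, Ccr7, Cxcl11 and Cxcl16 were higher and Cxcl1 and Cxcl14 lower in RelaΔhepStat3Δhep liver.

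**Figure D5:**
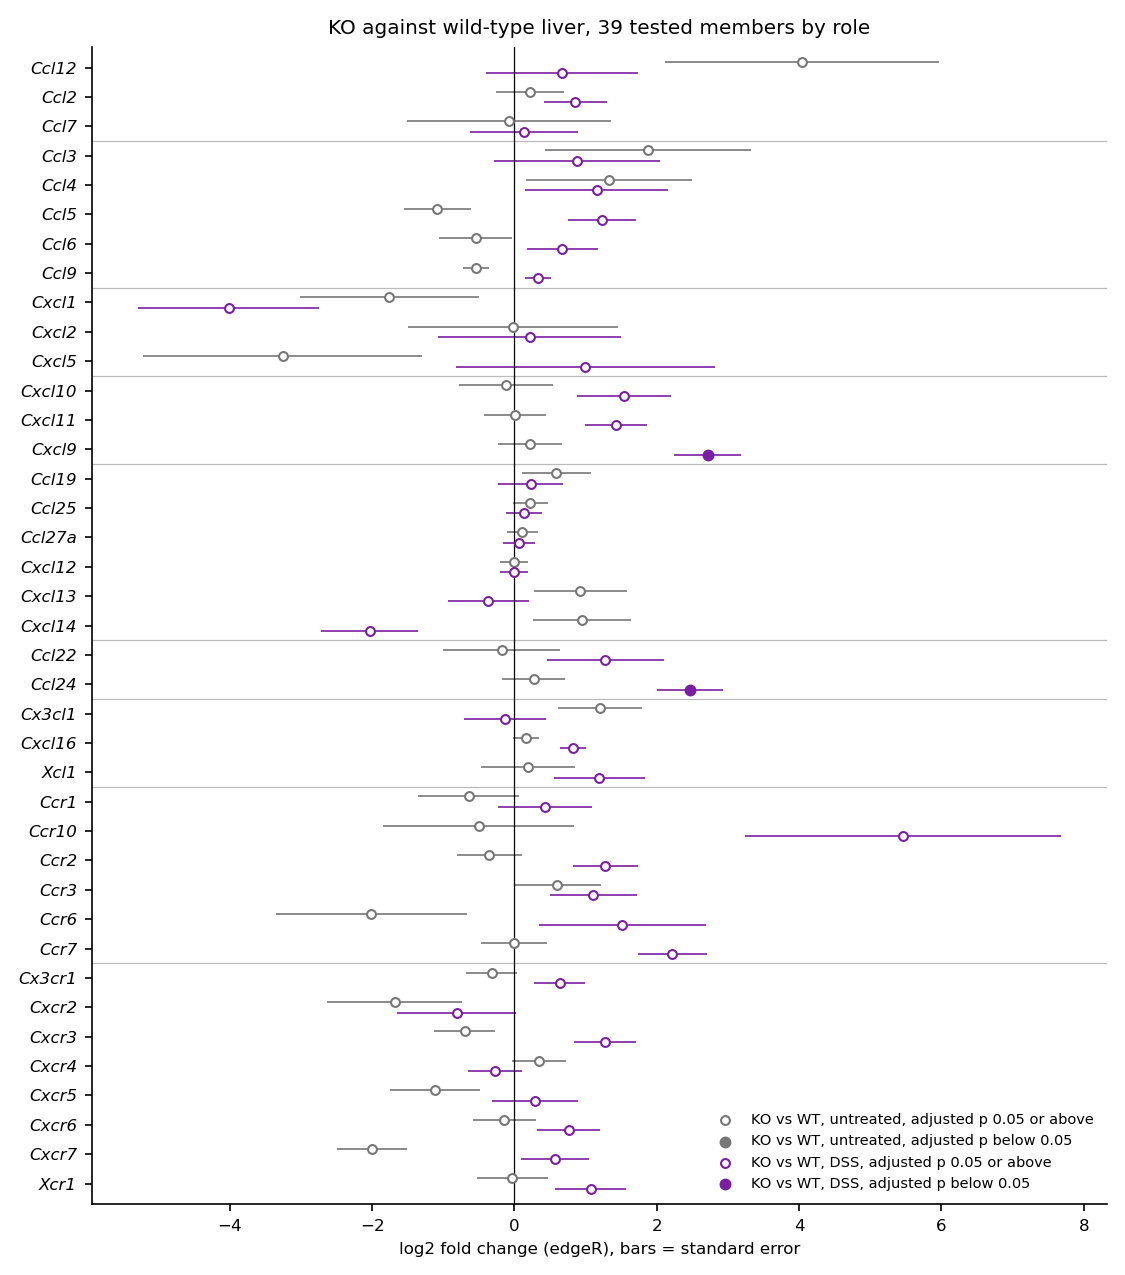
Log2 fold change of RelaΔhepStat3Δhep (KO) over wild-type (WT) liver in edgeR for 39 of the 40 tested members, ordered by role, in untreated and in DSS-treated mice. Bars are standard errors and filled points have an adjusted p below 0.05: none in untreated mice, and Ccl24 and Cxcl9 after DSS. The value of Ccr10 after DSS depends on the prior count, since the wild-type group has no count.

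The difference between the 2 DSS responses was tested as an interaction, the RelaΔhepStat3Δhep response minus the wild-type response. None of the 40 members passed the edgeR test, where 0.408% of all genes were called, and 12 had an unadjusted p under 0.05 (11 with the larger response in RelaΔhepStat3Δhep liver), against 16.3% of all genes. The DESeq2 test called 7 (Ccl5, Ccl9, Ccl24, Ccr7, Cxcl9 and Cxcr7 with the larger response in RelaΔhepStat3Δhep liver and Cxcl14 with the smaller one). The smallest adjusted p-values in edgeR were those of Cxcr7 (interaction 2.56, SE 0.68, adjusted p = 0.114) and Cxcl9 (2.50, SE 0.64, adjusted p = 0.119). In 7 members every DSS-treated wild-type library was below and every DSS-treated RelaΔhepStat3Δhep library above the untreated mean of its genotype (Ccl5, Ccl9, Ccl24, Ccr7, Cxcl5, Cxcr3 and Cxcr7), which is 17.5% of the 40 against 6.11% of all genes, and in 0 the reverse was seen, against 5.57%. Their interactions in edgeR had adjusted p-values of 0.114 to 0.447. Positive interactions were also seen in all tested B cell (5), T cell (6), NK cell (6), Kupffer cell (8) and sinusoidal endothelium (5) markers. Of the other lists, only the hepatocyte (1 of 5) and cholangiocyte (0 of 4) ones were not mostly positive. EdgeR called 0 of these markers. For Ccl2 the interaction was 0.64 (SE 0.65, adjusted p = 0.654) and its 95% interval ran from -0.77 to 2.06. For Ccl7 it was 0.21 (SE 1.65, adjusted p = 0.969), with an interval from -3.38 to 3.80, so a large difference in either direction was not detectable at this spread. Without the first DSS-treated wild-type library, Cxcl9 and Cxcl14 were called.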

How the data were processed

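Liver RNA from 12 mice, 3 in each of 4 groups taken from the sample labels, was rRNA-depleted and read from both fragment ends. The authors used fastp 0.23.2 for trimming, HISAT2 2.2.1 for alignment to mm9 and StringTie 2.2.1 for quantification, and deposited the estimated counts as whole numbers without normalisation. The annotation version behind the counts and the use of strand are not given in the sources used here.

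Symbols, positions and exon lengths were taken from GENCODE vM1 on NCBIM37 (mm9), so levels per kilobase are approximate. The members and all gene lists were chosen with earlier results of these data known. Genes were filtered with filterByExpr (17652 kept), normalised by TMM and tested in edgeR 4.0.16 (R 4.3.3, limma 3.58.1) with robust quasi-likelihood F tests in 1 model of the 4 groups. DSS was compared with no treatment in each genotype and averaged over both, the genotypes were compared within each treatment, and the interaction was tested. P-values were adjusted by the Benjamini-Hochberg method over all tested genes, and the biological coefficient of variation was 0.317. Standard errors follow from the fold change and its F statistic, and intervals are at 95%. Estimated counts of PCR-amplified reads are not independent molecules, so floors of 3 counts cover counting error only. An exact test of 3 against 3 libraries cannot give a two-sided p under 0.1 and was not used. The labels give a group and a replicate number, and the paper describes 3 biological replicates. P-values set each group difference against the spread between these replicates.

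The text names every called member, the 5 tested members with the smallest p in each comparison, the 6 ligands and 6 receptors with the highest level per kilobase, and members of each role, except 1 member and 1 other gene whose values are not reported here. The alternatives were the DESeq2 1.42.0 Wald test, DESeq2 size factors, 2 other filters, the replicate number as a block, sex read from Xist (above 100 CPM), fits on only the groups compared, leaving out each library in turn and, added after the data were seen, leaving out 2 libraries. The fit was tested on simulated data, and the outcome of that test is not reported here. No pair of libraries within a group was found to be a duplicate.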

Additional observations from a re-analysis of the deposited data

Results flagged for a closer look

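In 7 members the 2 DSS responses pointed in opposite directions in all 6 DSS-treated libraries, below the untreated mean in wild-type and above it in RelaΔhepStat3Δhep liver. Their interactions on the log2 scale were 2.196 for Ccl24, 2.32 for Ccl5, 0.88 for Ccl9, 2.22 for Ccr7, 4.25 for Cxcl5, 1.97 for Cxcr3 and 2.56 for Cxcr7. The value of Cxcl5 rests on the first untreated wild-type library, which had 78 counts where the other 2 had 0 and 4. For Cxcr3 that library was at 1.05 CPM and the other 2 at 0.424 and 0.347, against 0.307 to 0.382 in DSS-treated wild-type liver. None of the 7 passed the edgeR test of the difference, and 5 of them (Ccl5, Ccl9, Ccl24, Ccr7 and Cxcr7) were called by the DESeq2 test. The B cell marker sum was 5.01 to 6.01 CPM in untreated and 2.31 to 3.41 in DSS-treated wild-type liver. In RelaΔhepStat3Δhep liver it was 1.86 to 2.43 and 2.39 to 9.345. A positive interaction was seen in all tested B cell (5), T cell (6), NK cell (6), Kupffer cell (8) and sinusoidal endothelium (5) markers. It was also seen in 5 of 6 neutrophil and 5 of 6 stellate cell and fibroblast markers. For monocyte and for dendritic cell markers it was 3 of 4, for hepatocyte markers 1 of 5 and for cholangiocyte markers 0 of 4. Over all genes a positive interaction was seen in 8588 of 17652. EdgeR called none of these markers. The DESeq2 test called 3 B cell, 3 stellate cell and fibroblast and 2 NK cell markers, all positive, 1 hepatocyte marker, negative, and 0 T cell markers. The part of cell numbers was not tested. Sex-linked transcripts differ between the DSS-treated genotypes, and after DSS sex and genotype cannot be told apart.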

How the results depend on the processing

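A floor of 3 counts stood for 0.0359 to 0.0478 CPM, and levels below it were not resolved. DESeq2 size factors gave the same member counts in all 6 comparisons. The DESeq2 Wald test called 6 members for DSS in wild-type liver, 14 in RelaΔhepStat3Δhep liver, 14 in the average, 1 between untreated genotypes, 7 between DSS-treated genotypes and 7 in the interaction. With no low-count filter, 5 were called in the average and 1 between DSS-treated genotypes, and with at least 10 counts in every library 6 in the average. With sex as a covariate 2 were called in wild-type liver (Ccl2 and Ccl7), 0 in RelaΔhepStat3Δhep liver, 3 in the average and 0 between DSS-treated genotypes. Fits on only the groups compared called 0 in wild-type liver, 10 in RelaΔhepStat3Δhep liver (the 7 and Ccr1, Cxcl11 and Xcr1) and 0 between DSS-treated genotypes. Leaving out both the second DSS-treated and the third untreated wild-type library left 1 between DSS-treated genotypes.

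Leaving out each library in turn gave 0 to 4 calls in wild-type liver, 2 to 10 in RelaΔhepStat3Δhep liver, 4 to 11 in the average, 0 to 6 between DSS-treated genotypes, 0 to 2 in the interaction and 0 between untreated genotypes. Over the 40 members, 6 comparisons and all alternatives that gave a value, a call was kept 279 times, lost 142 times and newly made 68 times, 28 of these in the DESeq2 Wald test, and 0 values that were called in either fit changed sign. The cause of these changes was not tested.

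The replicate numbers did not pair the libraries: of 18 same-numbered pairs, correlations of deviations ran from -0.0886 to 0.168, 1 exceeded 0.1, and 5 of 12 libraries correlated best with their own number. The replicate block gave 2 calls in wild-type liver, 9 in RelaΔhepStat3Δhep liver, 8 in the average and 0 in the other 3 comparisons.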
